A study of Mus musculus with 9 samples.

Results

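The genes described here build and supply the primary cilium. They are 41 listed genes for intraflagellar transport, the BBSome, the transition zone and ciliary trafficking, taken by gene symbol from a table of 53280 genes, and all 41 were found. By role they were 11 genes of intraflagellar transport complex B (IFT-B), 3 of complex A (IFT-A), 8 of the BBSome with its recruiting GTPase Arl6, 2 chaperonin-like genes of BBSome assembly, 11 of the transition zone and connecting cilium, 3 kinesin motor genes, and 3 of the ARL3 lipid cargo system. The neural retina of mouse pups at postnatal day 4 was profiled by poly-A RNA sequencing in 2 genotypes, Opn4KO (knockout of Opn4, the melanopsin gene of intrinsically photosensitive ganglion cells) and Opn4WT, littermates bred from Opn4 heterozygotes. Samples were pools of 4 retinas from 2 animals of the same genotype, 5 of them knockout and 4 wildtype. All pups were kept under standard lighting of about 300 lux and were killed 6 to 7 h after lights on. The labels give neither sex, litter nor strain, nor the part of Opn4 that is removed.

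A primary cilium is a microtubule antenna that grows from a basal body. IFT-B with the kinesin-II motor carries cargo toward the tip, IFT-A with dynein-2 carries it back, the BBSome takes membrane proteins out, and the transition zone gates the base. In photoreceptors the cilium becomes the connecting cilium and outer segment, so that loss of many of these genes causes retinal degeneration in Bardet-Biedl, Joubert or Leber diseases, while dividing progenitors resorb their cilium before mitosis.

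Many ciliary genes carry an X-box, the DNA element bound by RFX transcription factors, close to their start. Promoter windows of 250 bases before to 50 bases after the start (RefSeq, GRCm38.p6) were matched by symbol for 37 of the 41 genes. The pattern made of GTNNCC, NNN and GNAAC in direct succession, with N for any base, was searched on both strands. It was found for 7 of these 37 genes (18.9%) and for 2.49% of 27025 genes. These genes had 32851 windows, and a gene counted if any of its windows matched. The spelling of the pattern was chosen after several had been looked at, and a match is a description and not a shown binding site. The matches are printed as 30 bases each because they show what these promoters share apart from expression, with the matched 14 bases in capitals and each written on the strand that carries the match.
Bbs7: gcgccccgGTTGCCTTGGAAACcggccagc
Nphp4: cggtgcccGTCTCCTAGGTAACgcgccagc
Ift22: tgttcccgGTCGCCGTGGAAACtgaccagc
Bbs4: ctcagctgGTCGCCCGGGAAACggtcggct
Mks1: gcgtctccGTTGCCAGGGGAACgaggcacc
Ift57: ggcagccgGTCACCACGGCAACcagacccg
Bbs1: tcccaggcGTCGCCTTGGCAACcagctcag
They lie at chr3:36613489-36613518 (Bbs7), chr4:152477903-152477932 (Nphp4), chr5:136908109-136908138 (Ift22), chr9:59353464-59353493 (Bbs4), chr11:87853183-87853212 (Mks1), chr16:49699199-49699228 (Ift57) and chr19:4906605-4906634 (Bbs1). The matches of Nphp4, Ift22 and Bbs4 are on the strand of the gene, and those of Ift57 and Bbs1 on the other. Those of Bbs7 and Mks1 fit the pattern on both strands and are written on the strand of the gene. Ift22 held a further match on the opposite strand of its gene, gctgcgcaGTAGCCCAGGAAACcctgacag, at chr5:136908079-136908108.

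Each pool held 65.5 M to 86.1 M counts (M, mega), of which the 41 genes took 0.207 to 0.285%. Opn4 lay at 1.07 to 1.82 CPM (counts scaled to library size, with TMM factors) in the knockout pools and at 11.4 to 12.0 CPM in the wildtype pools, so every library matched its label. As markers of the tissue, all 13 rod genes and all 19 progenitor and cell cycle genes on the lists used were measured, and none was at 0 in every pool. Knockout pools 1 and 2 stood apart by lens transcripts, with summed lens markers of 23.1 and 19.6 CPM where the remaining 7 pools held 9.82 to 12.5 CPM. Wildtype pool 3 stood apart by Xist, at 14.1 CPM where every other pool held 710 to 1066 CPM, and by a summed red blood cell level of 337 CPM, where the others held 74.0 to 205 CPM. Values without knockout pools 1 and 2, or without wildtype pool 3, are given beside some of the results that they move.

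All 41 genes were expressed in the P4 retina. On the length-scaled TPM values (abundance per transcript length, summed over the transcripts of a gene), which allow levels to be compared between genes, the mean over 9 pools ran from 1.33 for Kif17 to 300.0 for Rpgrip1. Rpgrip1, which encodes the scaffold that anchors RPGR in the connecting cilium, held 304 ± 85.1 TPM in knockout (SD, n = 5) and 294 ± 53.4 TPM in wildtype (SD, n = 4). Below it came Arl3, the small GTPase that releases lipid-modified cargo inside the cilium, with a mean of 169 TPM, Arl6, the GTPase that recruits the BBSome to membranes, with 159 TPM, and Ift20, the IFT-B subunit that also works at the Golgi, with 108 TPM. Rpgrip1 was above Arl3 in every pool. The pool ranges of Arl3 and Arl6 overlapped in knockout (162 to 178 and 156 to 188 TPM), so the order of these neighbours does not hold beyond the spread of pools there, and lay apart in wildtype (156 to 180 and 124 to 151 TPM). At the low end stood Bbs10, a chaperonin-like gene, with 5.49 TPM and Kif17, a kinesin motor described for opsin and olfactory channel transport, at 0.98 to 1.86 TPM over the pools. Raw counts were 99 to 202 per pool for Kif17 and at least 546 for each of the other 40 genes.

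**Figure D1:**
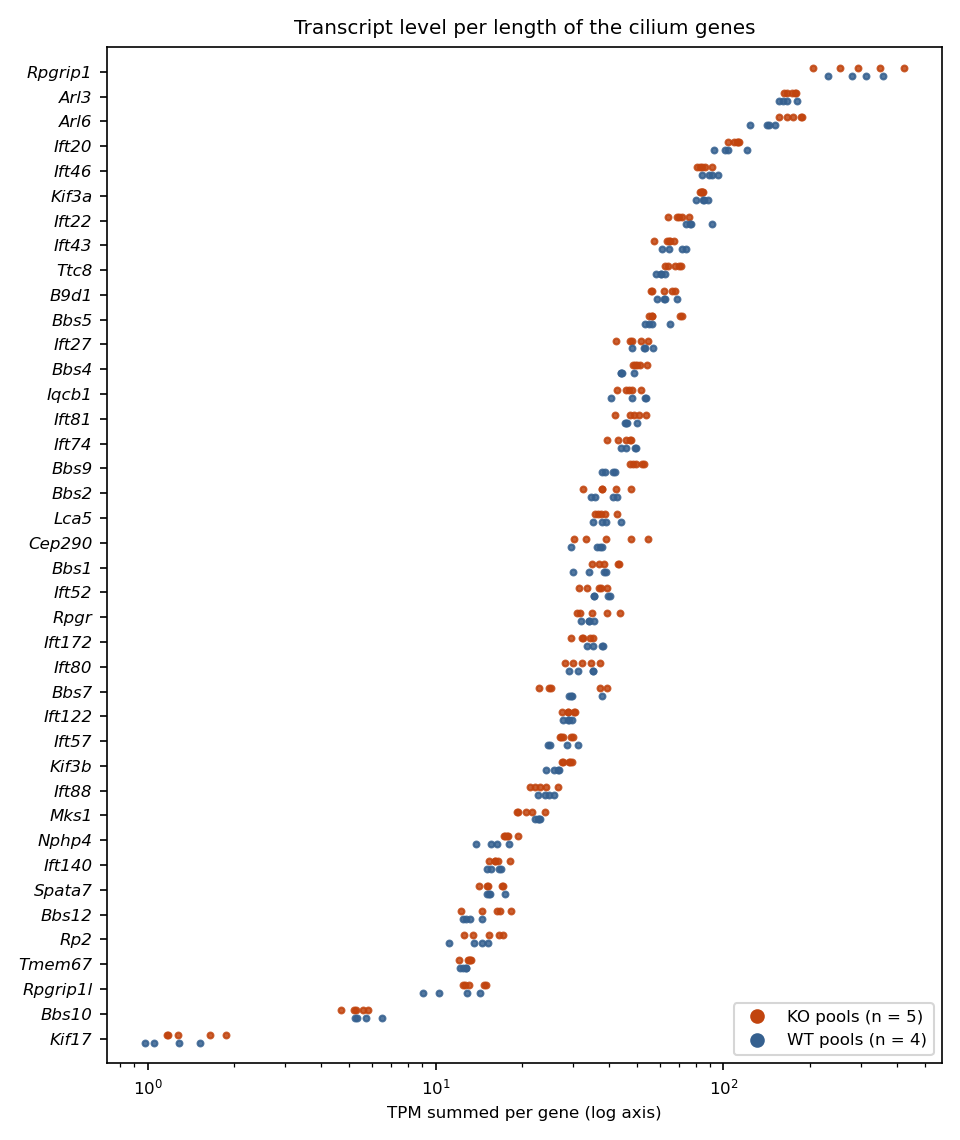
Transcript level of 40 of the genes in TPM summed per gene on a log axis, with 1 point per pool (5 knockout, 4 wildtype) and genes ordered by their mean. Rpgrip1, Arl3, Arl6 and Ift20 lie above 90 TPM in every pool, and Kif17 lies below 2 TPM in every pool.

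The main comparison asked whether these genes differ between Opn4KO and Opn4WT retinas at P4. One gene did. Bbs9, which encodes a core subunit of the BBSome, rose in knockout, and no gene of the set fell. Of the 41 genes 1 (2.44%) was called, against 3.59% of the 21150 genes tested (edgeR quasi-likelihood F test, Benjamini-Hochberg adjusted p under 0.05). By direction, 1.34% of all genes were called higher and 2.25% lower, so the share of the set that was called is near the background. At an unadjusted p under 0.05, 11 genes (26.8%) were higher and 0 lower, where 16.5% of all genes passed, 8.6% higher and 7.91% lower. DESeq2 called 2 of the 41 higher (Bbs9 and Arl6) and 0 lower. Over all 34459 genes given a p-value by DESeq2 it called 669 higher and 818 lower. DESeq2 can leave genes of low counts without an adjusted p, and their number was not counted, so no share is given. The pool ranges of both genotypes lay apart for 2 genes, Bbs9 and Kif3b (4.88%, higher in knockout), where this held for 8.29% of all genes, 3.92% higher and 4.37% lower. In whole retina, fewer cells that express a gene and less RNA per cell cannot be told apart.

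The set moved little. The log2 fold change (knockout minus wildtype throughout) was positive for 29 of 41 genes (70.7%; 50.4% of all genes) and negative for 12 (29.3%; 49.6%), and its median was 0.04 against 0.00 for all genes tested. The median absolute log2 fold change was 0.07 in the set and 0.11 over all genes, and the median SD between pools of 1 genotype was 0.093 and 0.153 on the log2 scale. The 95% interval of the fold change stayed within 1.2-fold in either direction for 24 genes and within 1.5-fold for 40, the exception being Cep290. On the TPM scale limma (log2 of TPM + 0.5) also called Bbs9 alone, 1 of 41 against 2.16% of 15296 genes (0.621% higher, 1.54% lower), and 4 genes had pool ranges apart (Bbs9, Arl6, Ttc8 and Kif3b, 9.76% against 7.89%, or 3.92% in that direction). The authors' deposited table of their own comparison listed 0 of the 41 with q under 0.05, against 1.46% of 17433 genes (0.648% higher, 0.815% lower), and 5 with p under 0.05 (12.2% against 11.6%). The lowest q values there were 0.0522 for Arl6 and 0.0604 for Bbs9.

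**Figure D2:**
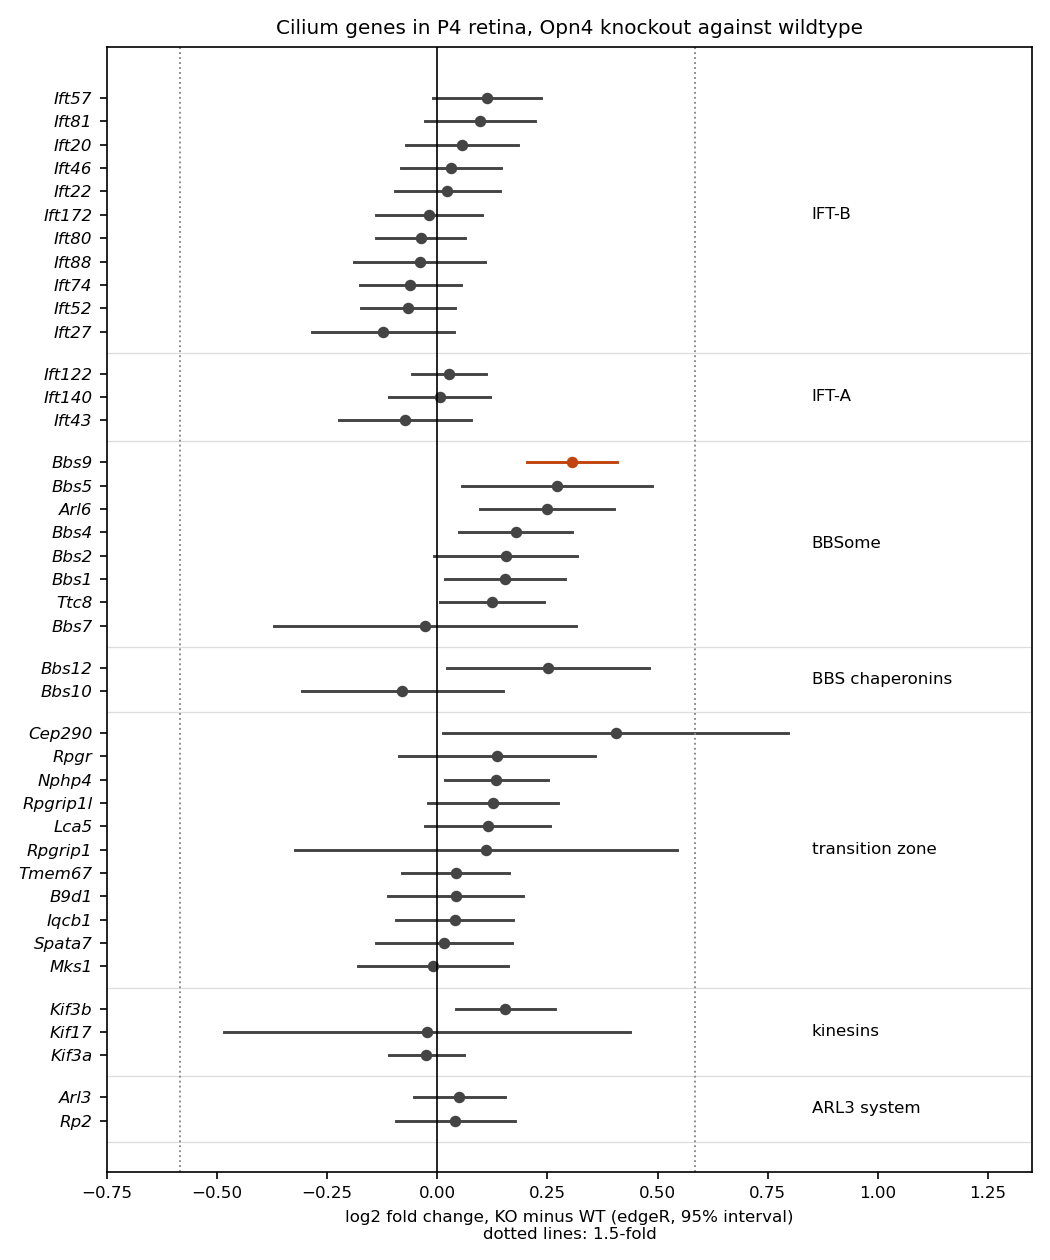
Log2 fold change of 40 of the genes, knockout minus wildtype, with its 95% interval from edgeR, grouped by role; the coloured point is the 1 gene called and dotted lines mark 1.5-fold. IFT genes lie on both sides of 0, whereas 7 of 8 BBSome genes and 10 of 11 transition zone genes lie to the right of it.

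In the counts, the genes of the intraflagellar transport trains were at near-equal levels in both genotypes. Among the 11 IFT-B genes, 5 had a positive and 6 a negative log2 fold change, from −0.12 (Ift27, the small GTPase that links the train to BBSome export) to 0.11 (Ift57, a subunit of the peripheral IFT-B part), with a median of −0.02. None passed the test (edgeR adjusted p 0.356 to 0.913, 0 at an unadjusted p under 0.05, 0 by DESeq2). The interval stayed within 1.2-fold for 10 of the 11, Ift27 being the exception. On the TPM scale the IFT-B differences ran from −0.18 (Ift22) to 0.08 (Ift20), and none was called. The scales differed most for Ift22 (0.02 in the counts, limma adjusted p = 0.238 on TPM). Ift172 had −0.02 in the counts and −0.14 on TPM (limma adjusted p = 0.330). Ift20 stood at 50.5, 51.0, 45.6, 46.9 and 46.3 CPM in knockout pools 1 to 5 and at 46.1, 46.1, 50.5 and 42.2 CPM in wildtype pools 1 to 4. These ranges overlapped, and the estimated log2 fold change came to 0.06 (SE 0.06, adjusted p by edgeR = 0.713). Without knockout pools 1 and 2 its sign turned (−0.0034).

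Among the other IFT-B subunits, Ift88, the subunit whose loss in mouse gives short or absent cilia, was at 30.2 ± 2.75 CPM in knockout and 31.0 ± 1.07 CPM in wildtype (SD, n = 5 and 4), Ift172, a large IFT-B subunit, at 57.9 ± 3.08 and 58.7 ± 3.73 CPM, and Ift81, which binds tubulin with Ift74, at 67.4 ± 5.09 and 63.0 ± 2.58 CPM. These genes and the remaining subunits Ift22, Ift46, Ift52, Ift74 and Ift80 did not pass the test. The mean log2 level of the IFT-B genes relative to all pools lay between −0.02 and 0.01 in knockout and between −0.04 and 0.05 in wildtype.

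IFT-A, the complex for return transport and for entry of membrane receptors, gave the same picture. Ift43, its small subunit, stood at 21.7, 21.3, 20.8, 19.0 and 20.8 CPM in the knockout pools and at 23.0, 19.5, 23.4 and 21.2 CPM in the wildtype pools. The ranges overlapped, with a log2 fold change of −0.07 (SE 0.07, edgeR adjusted p = 0.671; −0.11 without knockout pools 1 and 2). Ift122 and Ift140, its large scaffold subunits, had log2 fold changes of 0.03 and 0.00, and all 3 intervals stayed within 1.2-fold.

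The single call of the set was a BBSome gene, Bbs9. Of the 8 genes, 7 were higher in knockout by sign, with a median log2 fold change of 0.17, and 6 had an unadjusted p under 0.05 (Bbs9, Arl6, Bbs4, Bbs5, Bbs1 and Ttc8), but Bbs9 alone passed the adjusted test with edgeR. DESeq2 called Bbs9 and Arl6. Bbs9 (chr9:22475715-22888280, plus strand, GRCm38) stood at 93.2, 90.6, 88.4, 87.7 and 81.8 CPM in knockout pools 1 to 5 and at 68.3, 73.3, 69.5 and 74.9 CPM in wildtype pools 1 to 4. Every knockout pool was above every wildtype pool. The estimated log2 fold change came to 0.31 (SE 0.05, adjusted p by edgeR = 0.00255). Bbs9 kept the call in all 16 alternative fits of the counts, with an edgeR or DESeq2 adjusted p of at most 0.0193. Its log2 fold change was 0.26 without knockout pools 1 and 2 and 0.29 without wildtype pool 3. On the TPM scale Bbs9 was at 50.2 ± 2.38 in knockout and 40.0 ± 2.04 in wildtype (SD, n = 5 and 4; log2 fold change 0.32, limma adjusted p = 0.0123). There the call was less firm. It was just kept without wildtype pool 1 (limma adjusted p = 0.0498). It was lost with the pool number as a block on pools 1 to 4 (limma adjusted p = 0.0569).

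Arl6 (chr16:59612949-59639391, minus strand), the GTPase that brings the BBSome to the ciliary membrane, stood next. Its knockout pools held 111, 102.5, 94.5, 94.4 and 87.0 CPM and its wildtype pools 73.4, 88.3, 85.3 and 82.0 CPM. The ranges met only in knockout pool 5, which was below wildtype pool 2. The estimated log2 fold change came to 0.25 (SE 0.07, adjusted p by edgeR = 0.0767), which misses the threshold, as it did on the TPM scale (0.31, limma adjusted p = 0.0547), where the ranges lay apart at 156 to 188 TPM in knockout and 124 to 151 TPM in wildtype. DESeq2 called it (0.25, adjusted p = 0.0136), and over the 16 alternative fits of the counts its adjusted p ran from 0.0136 to 0.289 and passed in 2. The highest of these came without knockout pools 1 and 2, where its log2 fold change was 0.16.

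The other BBSome genes are named here outside the naming rule, after their values were seen. Bbs5, the subunit that binds phosphoinositide lipids, had a log2 fold change of 0.27 (SE 0.10, edgeR adjusted p = 0.182), and its knockout pools 1 and 2 at 35.2 and 34.3 CPM stood above the other 3 (24.5 to 28.0 CPM) and above the wildtype range of 23.7 to 26.8 CPM. Bbs4, a subunit also found at centriolar satellites, had 0.18 (edgeR adjusted p = 0.134), and Bbs1, the subunit that contacts ARL6, had 0.15 (edgeR adjusted p = 0.242). Ttc8, which encodes the subunit BBS8, had 0.12 (edgeR adjusted p = 0.272) and Bbs2 0.16 (edgeR adjusted p = 0.327). Bbs7, which forms part of the assembly core with Bbs2 and Bbs9, was the one gene with a negative sign, at −0.03 (SE 0.16, edgeR adjusted p = 0.959). Its knockout pools split into 50.3 and 47.2 CPM for pools 1 and 2 and 29.3 to 32.2 CPM for the other 3, with the wildtype pools at 34.6 to 47.4 CPM. Without knockout pools 1 and 2 the log2 fold changes of these genes were lower, at 0.10 for Bbs5, 0.12 for Bbs4, 0.08 for Bbs1, 0.06 for Ttc8 and 0.07 for Bbs2 (edgeR adjusted p 0.395 to 0.752). That of Bbs7 was then −0.33 (SE 0.10, edgeR adjusted p = 0.139).

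The chaperonin-like genes Bbs10 and Bbs12, which help to assemble the BBSome core, did not pass the test. Bbs12 held 22.9, 20.6, 24.2, 22.7 and 16.3 CPM in the knockout pools and 18.1, 19.9, 16.2 and 17.4 CPM in the wildtype pools. Knockout pools 1 to 4 were above all wildtype pools and knockout pool 5 was within their range. The estimated log2 fold change came to 0.25 (SE 0.11, adjusted p by edgeR = 0.251). Bbs10 had −0.08 (SE 0.11, edgeR adjusted p = 0.781). Without knockout pool 5 the count of called genes in the set rose from 1 to 3 (Arl6, Bbs9 and Bbs12). Over all genes the calls rose as well, from 284 higher and 476 lower of 21150 to 347 higher and 512 lower of 20893.

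**Figure D3:**
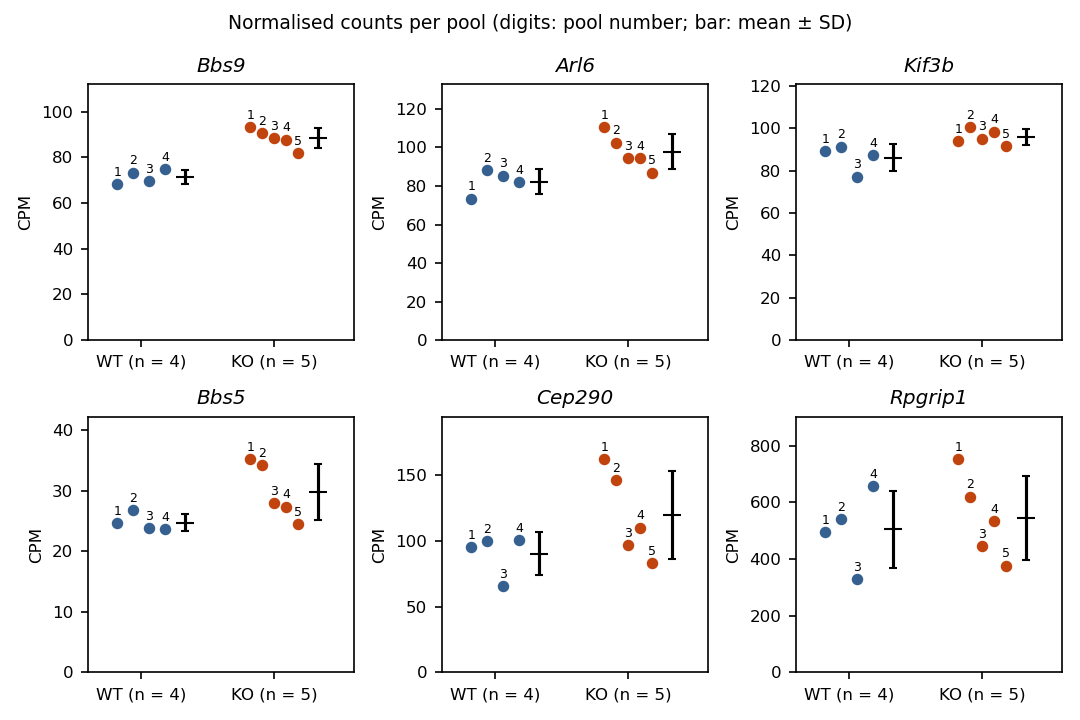
CPM per pool for Bbs9, Arl6, Kif3b, Bbs5, Cep290 and Rpgrip1, with the pool number beside each point and a bar for mean ± SD (4 wildtype, 5 knockout pools). Ranges lie apart for Bbs9 and Kif3b, and knockout pools 1 and 2 are the highest knockout pools in 5 of the 6 panels, Kif3b being the exception.

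In the counts, transition zone and connecting cilium genes leaned to higher values in knockout, but none passed the test. Of the 11 genes 10 had a positive sign, with a median log2 fold change of 0.11, 2 had an unadjusted p under 0.05 (Cep290 and Nphp4), and DESeq2 called 0. Without knockout pools 1 and 2 the lean was gone, with 5 of 11 positive and a median of −0.01. On the TPM scale the signs were mixed. The differences were positive for Cep290, Rpgr, Rpgrip1, Rpgrip1l, Nphp4 and Tmem67 (0.02 to 0.24). They were negative for Iqcb1, Lca5, Spata7, Mks1 and B9d1 (−0.12 to −0.01). Rpgrip1 stood at 752, 620.3, 446, 533 and 377 CPM in the knockout pools and at 494, 539.6, 329 and 658 CPM in the wildtype pools. The ranges overlapped widely, and the estimated log2 fold change came to 0.11 (SE 0.20, adjusted p by edgeR = 0.854). Its sign turned without knockout pool 1 (−0.03), without wildtype pool 3 (−0.05) and without knockout pools 1 and 2 together (−0.16).

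Cep290, which encodes the large protein that tethers the ciliary membrane to the microtubules of the transition zone, had the largest log2 fold change of the set at 0.40, with a wide error (SE 0.18, 95% interval 0.01 to 0.80, edgeR adjusted p = 0.285). Its knockout pools held 162, 146, 96.6, 110.1 and 83.1 CPM and its wildtype pools 95.4, 99.9, 65.9 and 100.4 CPM. Knockout pools 1 and 2 were far above and wildtype pool 3 far below the rest, and knockout pools 3 to 5 lay around the wildtype values. Without knockout pools 1 and 2 its log2 fold change was 0.09 (edgeR adjusted p = 0.821), and without wildtype pool 3 it was 0.28 (edgeR adjusted p = 0.535). Nphp4, a gene of the nephronophthisis module at the ciliary base, had 0.13 (SE 0.05, edgeR adjusted p = 0.228). Cep290 and Nphp4 are named outside the rule.

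The other genes of this compartment did not pass the test. Rpgr, the X-linked retinitis pigmentosa gene whose protein binds RPGRIP1, had a log2 fold change of 0.13 (edgeR adjusted p = 0.577), and Rpgrip1l, the paralogue of Rpgrip1 that works at the transition zone of many cilia, 0.13 (edgeR adjusted p = 0.391). Lca5, which encodes lebercilin, had 0.11 (edgeR adjusted p = 0.431). Iqcb1, which encodes a CEP290 partner, and the Meckel syndrome genes Tmem67 and B9d1 each had 0.04, Spata7, a connecting cilium gene, 0.02, and Mks1 −0.01. Tmem67 was at 23.3 ± 0.82 CPM in knockout and 22.6 ± 0.81 CPM in wildtype (SD, n = 5 and 4).

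Among the motors, no gene passed the test. Kif3a, which encodes a motor subunit of kinesin-II, held 130.0, 129, 128, 130.2 and 129.5 CPM in the knockout pools and 137, 133, 123 and 133 CPM in the wildtype pools. The knockout pools lay inside the wildtype range, and the estimated log2 fold change came to −0.02 (SE 0.04, adjusted p by edgeR = 0.823). Kif3b, the partner subunit in the same motor, held 94.0, 100.6, 95.1, 98.4 and 91.5 CPM in knockout and 89.2, 91.3, 77.1 and 87.2 CPM in wildtype. The lowest knockout pool was just above the highest wildtype pool, and the log2 fold change of 0.15 (SE 0.05) did not pass the test (edgeR adjusted p = 0.143). Kif3b is named outside the rule. Kif17 had −0.02 with a wide interval of −0.48 to 0.44.

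In the lipid cargo system, active ARL3 releases cargo in the cilium and RP2 switches it off. Arl3 stood at 58.4, 62.0, 61.9, 60.8 and 56.9 CPM in the knockout pools and at 54.6, 56.9, 61.7 and 58.6 CPM in the wildtype pools. The ranges overlapped, with a log2 fold change of 0.05 (SE 0.05, edgeR adjusted p = 0.677). Rp2 had 0.04 (edgeR adjusted p = 0.816).

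The lean of the set toward higher values in knockout came with particular pools. Knockout pool 1 was the highest of the 9 pools for 17 of the 41 genes, among them all 8 BBSome genes, and wildtype pool 3 was the lowest for 16. The mean log2 level of the BBSome genes relative to all pools was 0.26, 0.19, 0.02, 0.01 and −0.10 in knockout pools 1 to 5 and −0.15, 0.01, −0.17 and −0.07 in wildtype pools 1 to 4. The transition zone genes gave 0.23, 0.15, −0.06, 0.02 and −0.11 in knockout and −0.02, −0.01, −0.22 and 0.02 in wildtype. Without knockout pools 1 and 2, 23 of the 41 genes had a positive sign, 3 were higher at an unadjusted p under 0.05, the BBSome median was 0.09 and Bbs9 was still called. Leaving out wildtype pool 3 alone gave 26 positive signs and 6 genes higher at an unadjusted p under 0.05. The BBSome median was then 0.13, and Bbs9 was again called. The count of 11 at an unadjusted p under 0.05 was 6 or 7 when any one of knockout pools 1 to 4 or wildtype pools 1 or 3 was left out.

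Markers of several cell types also differed between the genotypes. Of 13 rod markers 11 were called higher and 0 lower, with a summed level of 4429.6 to 5962 CPM in the knockout pools and 3810.0 to 4175 CPM in the wildtype pools, and their mean log2 level was highest in knockout pools 1 and 2 (0.47 and 0.45) and lowest in wildtype pool 3 (−0.37). Of 19 progenitor and cell cycle markers 12 were called lower and 1 higher. Their summed level was 2276 to 2537 CPM in knockout and 3020.3 to 3098 CPM in wildtype. Lens markers, 2 of 9 tested called higher (Cryaa and Cryab), summed to 11.5 to 23.1 CPM in knockout and 9.82 to 11.2 CPM in wildtype. Of 10 photoreceptor precursor markers 4 were called higher and 0 lower, summing to 3322.5 to 3959 CPM in knockout and 3124 to 3345 CPM in wildtype. Of 8 bipolar cell markers 5 were called higher and 0 lower, and their sum was higher in every knockout pool (167 to 184 CPM) than in any wildtype pool (154 to 166 CPM). Cone markers had 0 of 10 tested called (1 higher and 1 lower at an unadjusted p under 0.05, 0 by DESeq2), with 5 positive and 5 negative signs. Their sums overlapped at 530.3 to 641 CPM in knockout and 565 to 642 CPM in wildtype. Ganglion cell markers had 2 of 10 called higher, amacrine and horizontal cell markers 2 higher and 1 lower of 10, and Müller glia markers 1 higher of 7, while pigment epithelium markers had 0 of 9 called (1 at an unadjusted p under 0.05, 1 by DESeq2). Red blood cell markers, 5 of 7 called lower, summed to 74.0 to 99.6 CPM in knockout and 110.5 to 337 CPM in wildtype. Without knockout pools 1 and 2, 7 rod, 2 precursor and 2 bipolar cell markers were called higher, 10 progenitor and cell cycle and 2 red blood cell markers lower, and no lens marker was called. No marker of these lists was at 0 in all pools, and the part of these cell types in the values of the cilium genes was not tested.

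**Figure D4:**
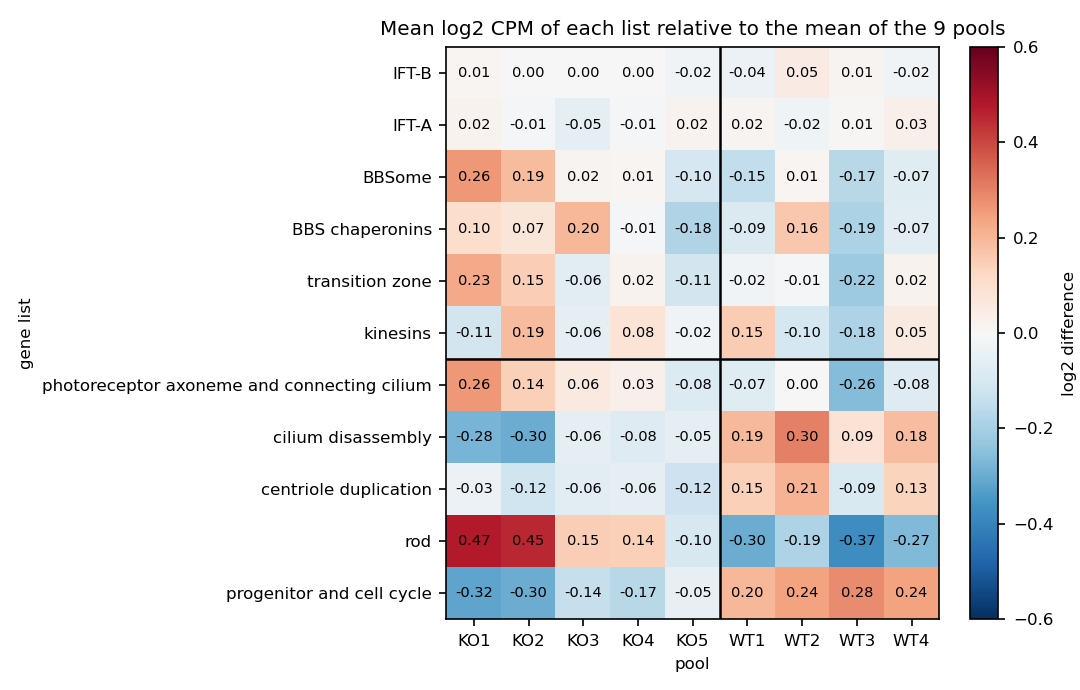
Mean log2 CPM of each gene list relative to the mean of the 9 pools, with 6 role groups of the cilium genes above the line and 5 other lists below it. IFT rows stay between −0.05 and 0.05, while the BBSome and transition zone rows are highest in knockout pools 1 and 2, as is the rod row.

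Of the other cilium genes, 109 were listed in 7 groups and 106 were tested. Of these 106, 3 were called higher and 10 lower, where 1.34% of all genes tested were called higher and 2.25% lower. No other gene of intraflagellar transport or dynein-2 was called (0 of 18, with 1 higher and 0 lower at an unadjusted p under 0.05, and 0 by DESeq2). The same held for the other BBS, transition zone and cargo genes (0 of 26, with 7 higher and 1 lower at an unadjusted p under 0.05), where DESeq2 called 2 higher (Cc2d2a and Unc119).

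Of 20 genes of the photoreceptor axoneme and connecting cilium, 3 were higher and 0 lower. Rp1, which encodes a doublecortin-family protein of the outer segment axoneme, held 569, 527, 465, 453 and 363 CPM in the knockout pools and 311, 326, 256 and 320.0 CPM in the wildtype pools. The lowest knockout pool was above the highest wildtype pool, and the estimated log2 fold change came to 0.65 (SE 0.11, adjusted p by edgeR = 0.0050). Rp1 is also 1 of the 13 rod markers. Its paralogue Rp1l1 had 0.60 (SE 0.10, edgeR adjusted p = 0.0050), and Pcare, a gene of outer segment disc formation listed in the count table as BC027072, had 0.34 (SE 0.08, edgeR adjusted p = 0.0217). The call of Pcare was lost without knockout pools 1 and 2 together (0.24, edgeR adjusted p = 0.0965) and when knockout pool 2 or wildtype pool 1, 2 or 3 was left out (edgeR adjusted p up to 0.0679).

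Of 9 genes that act in cilium disassembly, which precedes cell division, 5 fell and 0 rose, with a median log2 fold change of −0.46. Nek2, a centrosomal kinase, was at 19.0 ± 2.15 CPM in knockout and 30.4 ± 3.66 CPM in wildtype (SD, n = 5 and 4; log2 fold change −0.68, SE 0.10, edgeR adjusted p = 0.0015). Kif2c, a microtubule depolymerase, had −0.51, and Nde1, a dynein regulator that limits cilium length, −0.46. The other 2 called genes were the mitotic kinases Aurka and Plk1. Of 10 centriole duplication genes 2 fell, Stil with a log2 fold change of −0.78 (SE 0.07, edgeR adjusted p = 1.04e-04) and Plk4, the kinase that starts centriole duplication, with −0.48 (SE 0.08, edgeR adjusted p = 0.0046). These genes are also expressed in the cell cycle. The summed level of the progenitor and cell cycle list was lower in knockout as well, with the values given above. The part of the share of dividing cells was not tested.

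Of 16 genes of the basal body and its appendages 2 were lower, the distal appendage genes Sclt1 (log2 fold change −0.28, edgeR adjusted p = 0.0352) and Cep83 (−0.18, edgeR adjusted p = 0.0471). Both calls were fragile: that of Sclt1 was lost when any pool but knockout pools 1 and 3 was left out, and that of Cep83 when any pool but wildtype pool 3 was left out, and without knockout pools 1 and 2 together neither was called (edgeR adjusted p = 0.0610 and 0.150). Of 7 tested transcription factors of ciliary genes 1 was lower, Myb, at −0.26 (SE 0.05, edgeR adjusted p = 0.0106; 0.0587 without knockout pools 1 and 2). Of 12 tested motile cilium genes, markers of ependymal and airway cells, 1 was lower, Rsph1, at 1.86 ± 0.29 CPM in knockout and 2.99 ± 0.53 CPM in wildtype (SD, n = 5 and 4; edgeR adjusted p = 0.0405), a call lost without any 1 of 7 pools (knockout 1 to 4 and wildtype 1 to 3) or without knockout pools 1 and 2 together (edgeR adjusted p = 0.161).

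The deposited TPM values list transcripts separately, and the 41 genes have 285 of them, of which 171 were tested. A single one was called, the leading transcript of Arl6, which is 0.585% of those tested against 0.176% of all 48763 transcripts (0.0533% higher, 0.123% lower). It held 98.4, 98.5, 86.5, 97.6 and 82.6 TPM in the knockout pools and 61.3, 61.9, 66.1 and 70.7 TPM in the wildtype pools. All knockout pools were above all wildtype pools, and the difference was 0.51 on the log2(TPM + 0.5) scale (SE 0.07, limma adjusted p = 0.0355). The other 3 Arl6 transcripts had differences of 0.13, 0.07 and 0.23 with overlapping ranges, so most of the higher Arl6 sum lay in the leading transcript; whether the transcripts differ from each other in response was not tested. The call was lost when any pool but knockout pool 5 was left out (limma adjusted p up to 0.131). Of the 5 tested transcripts of Bbs9, 4 had positive differences and none was called, the leading one standing at 20.8 ± 2.71 TPM in knockout and 16.8 ± 2.91 TPM in wildtype (SD, n = 5 and 4). Transcript identifiers are not given in this table, so the transcripts are known only by gene and level.

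**Figure D5:**
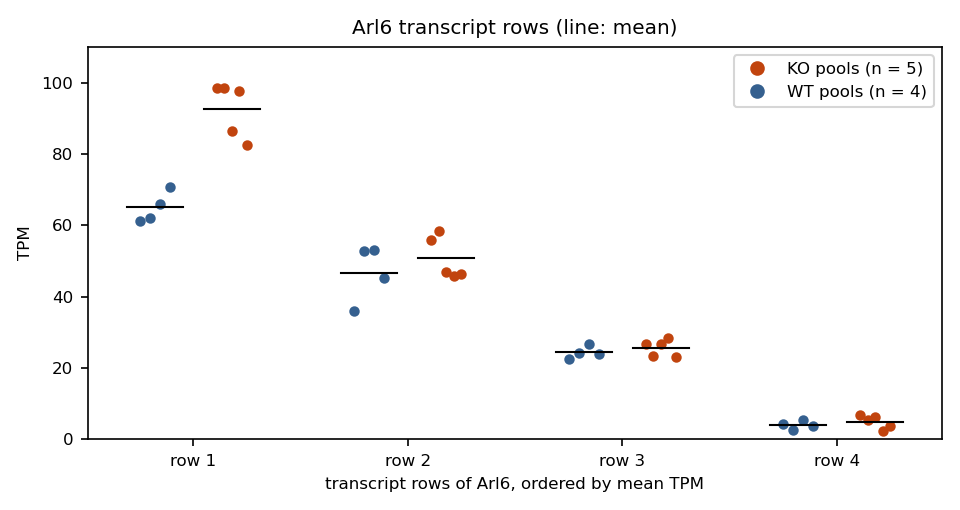
TPM of the 4 Arl6 transcripts, ordered by mean level, with 1 point per pool (4 wildtype, 5 knockout) and a line at each mean. The leading transcript lies at 82.6 to 98.5 TPM in knockout and 61.3 to 70.7 TPM in wildtype, and the other 3 overlap between the genotypes.

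The 7 genes with the promoter pattern had a median log2 fold change of 0.11 and the 30 genes with a window and no match one of 0.05, and neither Bbs9 nor Arl6 was among the 7. By position, Rpgrip1 (chr14:52110704-52163546) and Ift88 (chr14:57424062-57517936) share chromosome 14 with Opn4 (chr14:34590618-34600142), and neither was called. Exon bases shared with another annotated gene can move reads between genes where strand was not used, and 10 of the 41 genes share some, at most 8.70% of the exon bases of Rpgrip1 (with Supt16 on the opposite strand), 7.86% of those of Ift57 (with Gm15518 on the opposite strand) and 7.58% of those of Cep290 (with 4930430F08Rik on the opposite strand). A search of GENCODE M21 transcripts for near-identical copies found a match for 1 of the 41 genes, Rpgrip1 with Supt16. The longest match held 986 bases at 100% identity. Supt16 is also the gene that shares exon bases with Rpgrip1, so the match does not show a separate copy. Bbs9 shares no exon bases and Arl6 shares 2.62% with 4930547E14Rik on the opposite strand.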

How the data were processed

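The 41 genes, their role groups and the other lists were chosen with earlier results of these data known. Whole-number counts per gene were used as deposited; the sources used here do not say whether kallisto wrote them or whether strand was used, and their totals exceed the read number the submitters state. The authors deposited TPM values per transcript as a signal whose pool sums differ, from kallisto 0.46.1 on GRCm38 after Trimmomatic 0.39, per the submitters' processing notes. The authors' deposited comparison (sleuth 0.30.8, per the submitters' processing notes) holds p-values, q-values and effects on the natural log scale, positive where wildtype is higher per the deposited values of Opn4, turned here to log2 with knockout minus wildtype.

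Counts were tested with edgeR 4.0.16 (R 4.3.3): filterByExpr, TMM, quasi-likelihood F test, two-sided, genotype only, on all 9 pools and all genes, Benjamini-Hochberg adjusted at 0.05. CPM are given as mean ± SD. TPM summed per symbol, and transcripts, were tested with limma 3.58.1 (trend) on log2(TPM + 0.5), which understates changes of low values, where at least 4 pools reached a TPM of 1. DESeq2 1.42.0, other filters and scalings, left-out pools and a replicate block were alternatives. Values in every pool were given for called genes and for the gene of highest mean TPM in each role group; from each other list up to 3 called genes per direction were named with values. On simulated counts for this comparison (21150 genes) edgeR recovered 48% of the 1.25-fold, 74% of the 1.5-fold changes and 92% of the 2-fold changes, with 13 false calls. Changes were placed only in genes with a mean CPM of at least 1, 50 genes per fold. Genes were drawn independently, so shifts shared by many genes of a pool were not simulated. Positions are from GENCODE M21 (GRCm38). Replicate pools were checked and were not duplicates. They came from separate animals, since each pooled 2. Single values of 1 gene of the set and 1 marker are not reported here.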

Additional observations from a re-analysis of the deposited data

Results flagged for a closer look

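In 5 of the 82 gene and genotype groups examined, 1 pool lay far from the others of its genotype by Dixon's criterion, which chance meets in about 1 of 20 groups. Cep290 was at 65.9 CPM in wildtype pool 3, with the next pool at 95.4 CPM. Lca5 was at 59.7 CPM in knockout pool 1, with the next at 52.1 CPM, and Ift22 at 55.5 CPM in knockout pool 3, with the next at 50.3 CPM. Ift74 was at 53.5 CPM in wildtype pool 2, with the next at 48.9 CPM, and Nphp4 at 35.5 CPM in wildtype pool 4, with the next at 32.3 CPM.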

How the results depend on the processing

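Over 16 alternative fits the count of genes called lower stayed at 0 and the median log2 fold change of the set lay between 0.03 and 0.07. The count called higher was 2 with DESeq2 (Arl6 and Bbs9) and 1 to 3 with single pools left out. Over all genes the counts of higher and lower calls were 669 and 818 of 34459 given a p-value with DESeq2. They were 152 and 397 of 34490 without a filter on low counts, and 134 and 352 of 21374 without knockout pools 1 and 2. Of the other cilium genes, 7 were higher with DESeq2 and 2 to 7 with single pools left out, while 7 to 12 were lower with single pools left out and 6 without knockout pools 1 and 2. Signs were followed over all fits for the genes named by the rule and those with an unadjusted p under 0.05. Among these they turned for Ift20 (−0.0034 without knockout pools 1 and 2) and Rpgrip1 (−0.16 without both, and −0.048 to 0.26 with single pools left out). Neither was called in any fit, and the cause was not tested. Without knockout pools 1 and 2 the signs of further genes also turned. These were Rpgr (−0.05), Spata7 (−0.05), B9d1 (−0.04), Iqcb1 (−0.01), Ift46 (−0.0035) and Ift172 (0.03). On summed TPM 1 to 2 genes were called with single pools left out. The count of called transcripts was 0 without a TPM filter, where 95523 transcripts were tested in place of 48763, and 0 to 1 with single pools left out.

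The pools share only a number: correlations of same-numbered pools around their genotype means were 0.016, 0.019, 0.057 and −0.034, and only number 3 correlated best with its own. With the replicate number as a block on pools 1 to 4, 3 genes were called higher (Bbs5, Bbs9 and Cep290), 10 other cilium genes were higher, and the counts on summed TPM and on transcripts were both 0. Over all 20893 genes tested the block called 362 higher and 553 lower in the counts. Leaving out knockout pool 5 without a block also called 3 genes of the set, with 347 higher and 512 lower over all genes. The number of pools limits the precision, so an absent call among the IFT genes says no more than its interval.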
